A study of Mus musculus with 6 samples.

Results

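The genes described here are Bcr, the ABL kinase genes Abl1 and Abl2, and 7 genes for adaptors and phosphatases that bind BCR-ABL, namely Crk, Crkl, Grb2, Gab2, Sos1, Ptpn11 and Inpp5d. They were chosen by gene symbol as known components of BCR-ABL signalling, and all 10 were among the 29872 rows of the deposited table. RNA sequencing was done on 3 CML libraries, named for chronic myeloid leukaemia, and 3 WT (wild type) libraries. Both groups were untreated mouse bone marrow cells on the C57BL/6 background, cultured ex vivo for expansion and sorted as lineage-negative cells positive for Sca1, cKit and CD150. The labels name neither the transgene, its driver or the age of the mice for the CML group, nor whether each library had its own animal or culture. The p-values therefore reflect how far these libraries vary among themselves, which can be technical variation.

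BCR-ABL is a fusion of the GTPase regulator BCR with the tyrosine kinase ABL1, and its constitutive kinase activity drives chronic myeloid leukaemia. A phosphorylated tyrosine in the BCR portion recruits GRB2, which brings the RAS exchange factor SOS1 and the docking protein GAB2. GAB2 in turn binds the tyrosine phosphatase SHP2 (gene Ptpn11) and the PI3 kinase, while CRKL and CRK bind the ABL portion through their SH3 domains. The lipid phosphatase SHIP1 (gene Inpp5d) opposes PI3 kinase signalling in blood cells.

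Crk was the single gene of the 10 that passed the test between the groups. It was lower in CML, at 0.662 of the WT level. The other 9 genes did not pass the threshold, an adjusted p under 0.05 in the quasi-likelihood test of edgeR with Benjamini-Hochberg adjustment over all 16221 genes tested. Over all tested genes 17.4% passed in either direction and 7.20% were lower in CML. Of the 10 genes, 0 were higher at the adjusted threshold, 0 at an unadjusted p under 0.05, and 0 with DESeq2 or limma-voom, while 10.2% of all tested genes were called higher in CML. The estimates were positive for 5 genes and negative for 5. Their median log2 fold change (CML over WT) was -0.04, against -0.00425 for all tested genes, and their median size without sign was 0.23, against 0.26. All 10 passed the filter on low counts, and Bcr had the fewest counts, 86 to 143 in a library.

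**Figure D1:**
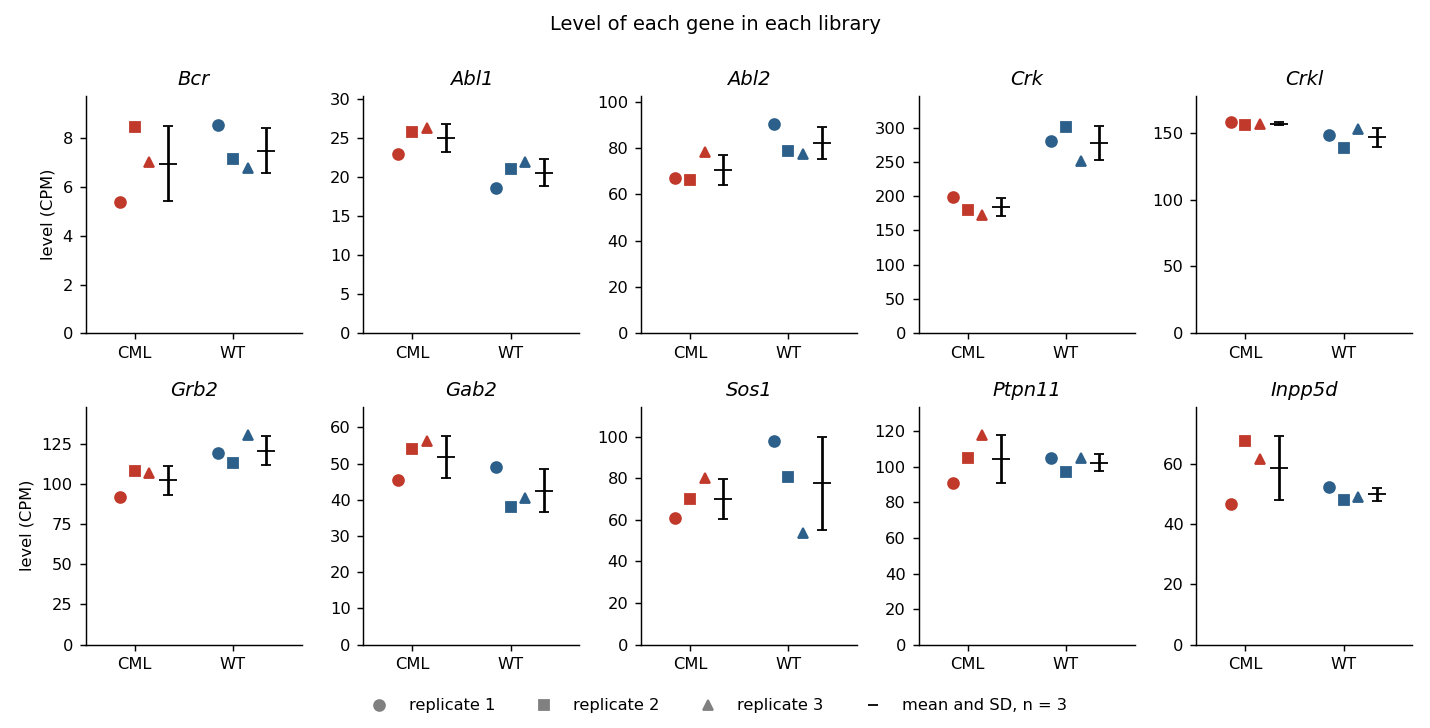
Level of each gene in library-size-scaled counts (CPM, vertical axis from 0) in the 3 CML libraries (left, red) and the 3 WT libraries (right, blue), with marker shape for the replicate number and the mean with its SD (n = 3) beside each group. Crk lies at 173 to 199 CPM in CML, below every WT library (252 to 301 CPM). Bcr, Abl2, Gab2, Sos1, Ptpn11 and Inpp5d overlap between the groups. The groups do not overlap for 4 of the 10 genes (40%), near the share of 35.0% over all tested genes.

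The libraries held 13323469 to 17926847 counts. The gate genes Kit, Ly6a (Sca1) and Slamf1 (CD150) were detected in all 6 libraries, with a summed level of 295 to 594 CPM in CML and 348 to 387 CPM in WT. Of the gate genes 0 were called higher and 1 lower, Slamf1, named after its values were seen. It had 11.2, 19.2 and 12.1 CPM in CML, against 23.6, 31.8 and 18.7 CPM in WT (log2 fold change -0.80, adjusted p = 0.0470, edgeR), with CML replicate 2 above WT replicate 3. Slamf1 missed the threshold on leaving out CML replicate 1 (0.0946) or 3 (0.152), or WT replicate 1 (0.134) or 2 (0.158), when scaled by library totals (0.0563) and when genes under a mean of 50 counts were removed (0.0520). Ly6a, also named after its values were seen, went the other way and was not called (log2 fold change 1.025). It had 81.7, 172 and 65.3 CPM in CML, against 40.0, 52.4 and 64.2 CPM in WT, without overlap. At an unadjusted p under 0.05, 1 gate gene was higher with DESeq2 and with limma-voom, and 0 with edgeR. Marker genes of other cell types moved with the groups. The summed level of 10 mast cell and basophil genes, 5 of them called higher and 0 lower, was 2073 to 7289 CPM in CML and 184 to 375 CPM in WT. These 5 calls became 9 without CML replicate 1, 3 without any one of CML replicate 2, CML replicate 3 or WT replicate 2, and 1 without WT replicate 1, and there were 8 with DESeq2 or limma-voom. Of 8 monocyte and macrophage genes 5 were called higher and 0 lower (113 to 203 CPM in CML, 22.2 to 31.8 CPM in WT). Of 8 dendritic cell genes 4 were called higher and 0 lower (90.0 to 278 CPM in CML, 26.9 to 51.3 CPM in WT). The 4 calls became 2 on leaving out CML replicate 3 or WT replicate 3, and 1 on leaving out WT replicate 1 or 2. Without WT replicate 2, or with no low-count filter (2 higher), 1 dendritic gene was called lower. Of 8 megakaryocyte genes 0 were called higher and 2 lower (123 to 193 CPM in CML, 275 to 297 CPM in WT). The 2 became 1 without CML replicate 2, without any 1 WT library or when scaled by library totals. Neutrophil genes summed to 113 to 196 CPM in CML and 96.2 to 187 CPM in WT (0 of 8 called), erythroid genes to 8.91 to 39.7 CPM in CML, against 51.4 to 60.7 CPM in WT (1 higher and 1 lower of 8), and lymphoid genes to 46.3 to 56.2 CPM in CML, against 14.4 to 19.9 CPM in WT (2 higher and 0 lower of 10). Without CML replicate 1, 5 erythroid genes were called higher, and without WT replicate 1 none was called lower. Ptprc, which encodes the blood cell antigen CD45, had 746 to 808 CPM in CML, against 592 to 796 CPM in WT. Of the markers, Camp and Slc4a1 were at 0 in all WT libraries, as was Hba-a1 after rounding (0.499 in WT replicate 1 before it), and none was at 0 in all CML libraries. The mast cell, monocyte, dendritic and lymphoid lists had 0 genes lower, and the megakaryocyte list 0 higher, also at an unadjusted p under 0.05 and with DESeq2 or limma-voom. In the neutrophil list 0 were higher and 1 lower at an unadjusted p under 0.05 (edgeR), and 0 passed with DESeq2 or limma-voom. The part of these cell types in the values below was not tested. In bulk RNA, fewer cells of a type and less RNA per cell cannot be told apart.

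Bcr encodes a protein with a coiled-coil oligomerization domain, a guanine nucleotide exchange factor domain and a RAC GTPase-activating domain. The gene (chromosome 10, 75060592 to 75184921, GRCm38) had 5.40, 8.46 and 7.01 CPM in CML replicates 1, 2 and 3, against 8.54, 7.13 and 6.79 CPM in the WT replicates in that order. The groups overlapped, and CML replicate 1 held the lowest value of the 6. The log2 fold change was -0.11 (SE 0.21, adjusted p = 0.768, edgeR), with a 95% interval from -0.57 to 0.35, and it was 0.04 without CML replicate 1. Abr, the paralogue of Bcr with the same exchange factor and RAC GTPase-activating domains, rose. It had 58.9, 68.6 and 63.8 CPM in CML, against 31.2, 32.3 and 38.3 CPM in WT libraries (log2 fold change 0.91, SE 0.13, adjusted p = 3.46e-04, edgeR). An annotated RNA of the opposite strand overlaps an exon of Abr, and the strand setting of the counting is not given in the sources used here.

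Abl1 and Abl2 encode the ABL family of tyrosine kinases, which link receptor signals to the actin cytoskeleton. Abl1 (chromosome 2, 31688376 to 31804227) had 23.0, 25.8 and 26.3 CPM in CML, against 18.6, 21.1 and 22.0 CPM in WT. Each CML library lay above each WT library, which held for 35.0% of all tested genes in one direction or the other, but the change missed the threshold (log2 fold change 0.28, SE 0.13, 95% interval from -0.0058 to 0.57, adjusted p = 0.167, edgeR). Gm13427, an annotated antisense RNA, overlaps an exon of Abl1, so the value of Abl1 is uncertain to that extent. How reads of a human fusion transcript, if any, would be assigned to mouse Abl1 or Bcr is not given in the sources used here, and a fusion was not analysed here.

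Abl2 (chromosome 1, 156558786 to 156649568) had 67.2, 66.3 and 78.2 CPM in CML, against 90.3, 78.9 and 77.5 CPM in WT, with 1 CML value (replicate 3) above the lowest WT value. The log2 fold change of -0.22 did not pass (SE 0.12, 95% interval from -0.48 to 0.04, adjusted p = 0.227, edgeR). The estimates of the ABL genes thus had opposite signs. Their ratio within a library does not depend on scaling between libraries. There were 2.92, 2.57 and 2.97 counts of Abl2 for each count of Abl1 in CML replicates 1, 2 and 3, against 4.85, 3.74 and 3.52 in WT replicates 1, 2 and 3. The groups did not overlap, and the mean log2 ratio differed by -0.51 (CML minus WT; exact two-sided permutation test, p = 0.1, the smallest p that 3 libraries against 3 allow; 0.1 adjusted over 3 ratios). A ratio shows unequal change and not which gene changed.

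Crk and Crkl encode adaptors made of an SH2 domain and SH3 domains, and phosphorylated CRKL is the usual clinical readout of BCR-ABL kinase activity. Crk (chromosome 11, 75679259 to 75706908) had 199, 180.4 and 173 CPM in CML, against 281, 301 and 252 CPM in WT. Every CML library lay below every WT library. The log2 fold change was -0.59 (SE 0.12, 95% interval from -0.85 to -0.34, adjusted p = 0.00375, edgeR), and it was called under each of the 9 other settings and with each library left out in turn. Crkl (chromosome 16, 17451987 to 17487434) had 158, 156 and 156 CPM in CML, against 148, 139 and 152 CPM in WT. The groups did not overlap here either, but the difference was small and missed the threshold (log2 fold change 0.10, SE 0.11, 95% interval from -0.13 to 0.32, adjusted p = 0.568, edgeR). The spread of Crkl over the CML libraries was 0.579% of its mean, the smallest of the 10 genes in either group.

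Within libraries there were 0.794, 0.865 and 0.903 counts of Crkl for each count of Crk in CML replicates 1, 2 and 3, against 0.527, 0.460 and 0.606 in WT replicates 1, 2 and 3. The mean log2 ratio differed by 0.69 (CML minus WT; exact two-sided permutation test, p = 0.1, the smallest possible; 0.1 adjusted over 3 ratios). Without 1 library the difference ran from 0.59 to 0.79. Per exon length, Crk was at 38.9 ± 2.78 CPM per kilobase in CML and 58.8 ± 5.29 in WT (SD, n = 3), and Crkl at 31.1 ± 0.18 in CML and 29.0 ± 1.40 in WT. The gap in level between the CRK genes was thus smaller in CML than in WT.

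Because these paralogues showed unlike values, the 250 bases before their annotated starts are given from RefSeq on GRCm38.p6, both on the plus strand, at chr11:75679009-75679258 for Crk and chr16:17451735-17451984 for Crkl. The capitals mark matches to the motifs searched on both strands. These were the GC box GGGCGG, the CCAAT box CCAAT, the cyclic AMP element TGACGTCA, the STAT element TTCNNNGAA and the ETS core CCGGAAGT, a set chosen after the promoters had been read.
Crk: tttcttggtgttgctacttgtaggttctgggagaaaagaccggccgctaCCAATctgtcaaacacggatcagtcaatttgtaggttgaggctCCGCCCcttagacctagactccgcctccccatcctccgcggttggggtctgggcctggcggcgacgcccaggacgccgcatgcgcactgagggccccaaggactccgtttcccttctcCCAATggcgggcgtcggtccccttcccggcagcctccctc
Crkl: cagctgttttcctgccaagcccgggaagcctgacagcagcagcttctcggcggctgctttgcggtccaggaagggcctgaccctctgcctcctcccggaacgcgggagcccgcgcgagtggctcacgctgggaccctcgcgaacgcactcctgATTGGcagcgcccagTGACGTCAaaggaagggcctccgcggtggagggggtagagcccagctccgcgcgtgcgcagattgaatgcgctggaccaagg
The Crk stretch held 2 CCAAT boxes, at 201 to 197 and 40 to 36 bases before the start, and 1 GC box on the minus strand at 158 to 153. The Crkl stretch held 1 CCAAT box on the minus strand, at 97 to 93 bases, and 1 cyclic AMP element at 82 to 75. No marked matches overlap. In the 300-base promoters (250 bases before and 50 after the start), a GC box was found in 35.7% of all 32851 RefSeq promoters, a CCAAT box in 37.4%, a cyclic AMP element in 1.79%, a STAT element in 8.30% and an ETS core in 3.89%. Promoters of 9 of the 10 genes were matched. Of these, Ptpn11 also held the cyclic AMP element, and none held the STAT or ETS letters in this window. The GC content of the Crk promoter was 65.0% and that of Crkl 67.3%, against a median of 52.7% over all promoters. It ran from 46.7% (the first of 2 entries for Grb2) to 82.3% (Bcr) among the 9 genes. The windows of Grb2, Abl1 and Bcr lie wholly inside the gene spans given in this text, and not at the outermost annotated start. A match is a description of letters and not of binding.

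The tested genes whose level over the 6 libraries was most like that of Crk, out of 11859 named genes, were Tor1aip2 (Pearson 0.998 on log2 CPM), Fbxo3 (0.997) and Eif1ax (0.997). These coefficients are descriptions over 6 libraries that share the group difference. Eif1ax, a translation initiation factor gene, had a log2 fold change of -0.59 (adjusted p = 0.00441, edgeR). Fbxo3, an F-box gene, had -0.35 (adjusted p = 0.0431), which missed the threshold on leaving out CML replicate 2 (0.163) or 3 (0.162), or WT replicate 1 (0.0921) or 2 (0.187), and when scaled by library totals (0.116). Tor1aip2 had -0.29 and missed it (0.0739; 0.0189 without WT replicate 3 and 0.0466 with DESeq2).

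**Figure D2:**
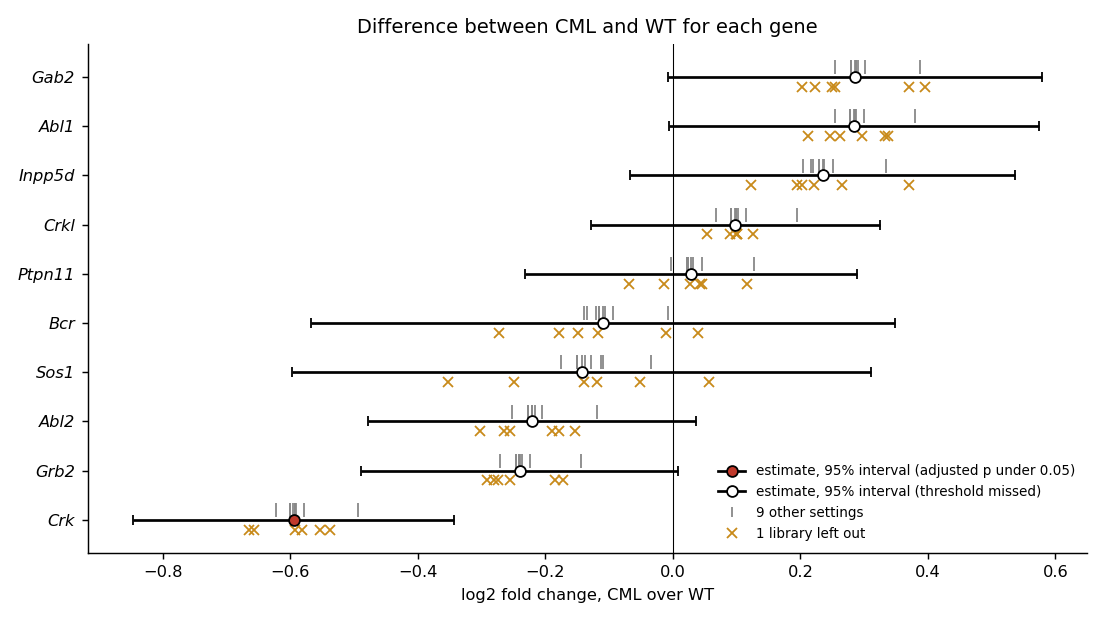
Log2 fold change of CML over WT (horizontal axis) for each of the 10 genes, with its 95% interval. The filled circle passed an adjusted p of 0.05 and open circles did not, ticks above give the 9 other settings and crosses below the 6 fits that leave out 1 library. Crk stays between -0.66 and -0.49 in all of them, and only Bcr, Sos1 and Ptpn11 have settings on both sides of 0.

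Grb2 encodes the adaptor that joins phosphorylated tyrosines to SOS1 and GAB2 through 1 SH2 domain and its SH3 domains. Grb2 (chromosome 11, 115644045 to 115708597) had 91.9, 108 and 107 CPM in CML, against 119, 113 and 130.2 CPM in WT. All CML values lay below all WT values, but the log2 fold change of -0.24 did not pass (SE 0.12, 95% interval from -0.49 to 0.0087, adjusted p = 0.173, edgeR). Of the 2957 stretches of 50 bases in Grb2 transcripts, 223 (7.54%) also occur in the gene model Gm12791, which held 98, 137 and 142 counts in CML and 170, 159 and 156 counts in WT. The treatment of shared reads is not given in the sources used here. With the Gm12791 counts added, Grb2 averaged 111 ± 10.8 CPM in CML libraries and 131 ± 8.63 CPM in WT libraries (SD, n = 3), a log2 ratio of means of -0.24. The other 9 genes shared at most 0.830% of their 50-base stretches with another gene.

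Sos1 encodes the exchange factor that loads RAS with GTP. Sos1 (chromosome 17, 80393751 to 80480453) had 60.7, 69.9 and 80.0 CPM in CML, against 98.1, 80.7 and 53.7 CPM in WT. The WT libraries ran from below the lowest to above the highest CML library, and their spread was 28.8% of the mean, the widest of the 10 genes. The log2 fold change was -0.14 (SE 0.20, 95% interval from -0.60 to 0.31, adjusted p = 0.679, edgeR), and it was 0.06 without WT replicate 1 and -0.35 without WT replicate 3. Its paralogue Sos2 had 48.9, 61.2 and 67.3 CPM in CML, against 89.1, 75.8 and 63.7 CPM in WT. Its log2 fold change of -0.37 missed the threshold (SE 0.15, adjusted p = 0.115, edgeR) and passed it without WT replicate 3 (-0.48, adjusted p = 0.0340). In WT replicate 3 both SOS genes were at their lowest among the WT libraries. The ratio of Sos2 to Sos1 was 0.806, 0.876 and 0.841 in CML replicates 1, 2 and 3 and 0.908, 0.939 and 1.18 in WT replicates 1, 2 and 3, a mean log2 difference of -0.26 (CML minus WT; exact two-sided permutation test, p = 0.1, the smallest possible; 0.1 adjusted over 3 ratios).

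**Figure D3:**
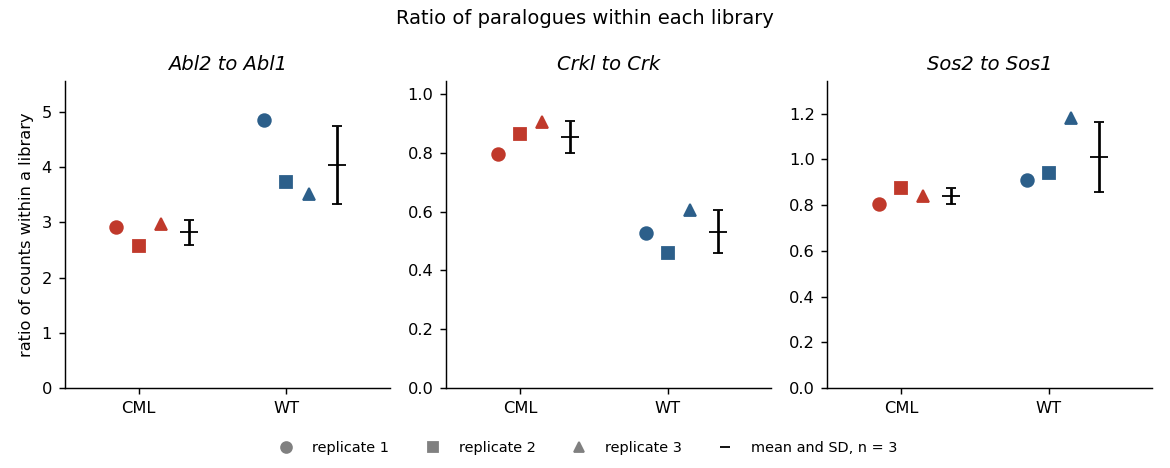
Ratio of counts of Abl2 to Abl1, Crkl to Crk and Sos2 to Sos1 within each library (vertical axes from 0), CML left in red and WT right in blue, with marker shape for the replicate number and mean and SD (n = 3) beside them. In each panel the 3 CML libraries lie on 1 side of the 3 WT libraries, lower for Abl2 to Abl1 (2.57 to 2.97 against 3.52 to 4.85) and Sos2 to Sos1, and higher for Crkl to Crk (0.794 to 0.903 against 0.460 to 0.606).

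Gab2 encodes the docking protein through which BCR-ABL reaches PI3 kinase and SHP2. Gab2 (chromosome 7, 97081586 to 97308946) had 45.4, 54.1 and 56.2 CPM in CML, against 49.2, 37.9 and 40.6 CPM in WT. CML replicates 2 and 3 lay above all WT libraries and CML replicate 1 below WT replicate 1. The log2 fold change of 0.29 did not pass (SE 0.14, 95% interval from -0.0081 to 0.58, adjusted p = 0.170, edgeR).

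Neither phosphatase gene passed the threshold. Ptpn11 (chromosome 5, 121130533 to 121191397), for SHP2, had 90.8, 105 and 118 CPM in CML, against 105, 97.1 and 105 CPM in WT. The WT libraries lay within the range of the CML libraries, and the log2 fold change was 0.03 (SE 0.12, adjusted p = 0.902, edgeR) with a 95% interval from -0.23 to 0.29. Inpp5d (chromosome 1, 87620312 to 87720507), for SHIP1, had 46.9, 67.6 and 61.9 CPM in CML, against 52.5, 48.1 and 49.3 CPM in WT. CML replicate 1 had the lowest value of the 6 libraries and CML replicates 2 and 3 the highest, and the log2 fold change of 0.23 did not pass (SE 0.14, 95% interval from -0.07 to 0.54, adjusted p = 0.276, edgeR). Without CML replicate 1 it was 0.37 (adjusted p = 0.0568).

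CML replicate 1 had the lowest value among the CML libraries for 7 of the 10 genes (70.0%), the exceptions being Abl2, Crk and Crkl. This was the case for 36.9% of all tested genes. The summed mast cell and basophil genes were also lowest there, at 2073 CPM against 7289 and 4581 CPM in CML replicates 2 and 3, as were the monocyte and macrophage genes (113 against 203 and 148 CPM) and the dendritic cell genes (90.0 against 278 and 239 CPM). The summed gate genes (295 against 594 and 398 CPM) and neutrophil genes (113 against 135 and 196 CPM) were lowest there too. So were the erythroid genes (8.91 against 39.7 and 26.0 CPM) and the megakaryocyte genes (123 against 170 and 193 CPM). Ptprc and the lymphoid sum were not lowest in CML replicate 1. The part of these lists in the values of Gab2 and Inpp5d was not tested.

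Per exon length, the WT means of the genes ran from 0.914 to 58.8 CPM per kilobase. In WT the order was Crk (58.8 ± 5.29 CPM per kilobase), Grb2 (41.4 ± 3.02), Crkl (29.0 ± 1.40), Ptpn11 (13.7 ± 0.62), Abl2 (7.61 ± 0.65), Sos1 (7.32 ± 2.11), Gab2 (6.90 ± 0.95), Inpp5d (6.57 ± 0.30), Abl1 (1.77 ± 0.15) and Bcr (0.914 ± 0.113; SD, n = 3). Abl2, Sos1, Gab2 and Inpp5d lay within 1 SD of a neighbour in that order, and the others were separated from their neighbours by more than their SDs. In CML the first places were Crk (38.9 ± 2.78), Grb2 (35.0 ± 3.06) and Crkl (31.1 ± 0.18), where the SDs of Crk and Grb2 overlap. Over the 6 libraries the mean level per length of Crk was above 93.3% of the 15805 tested genes with an annotated length, that of Abl1 above 31.4% and that of Bcr above 18.1%. The RNA of Bcr was thus the scarcest of the 10, both in CPM and per length.

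**Figure D4:**
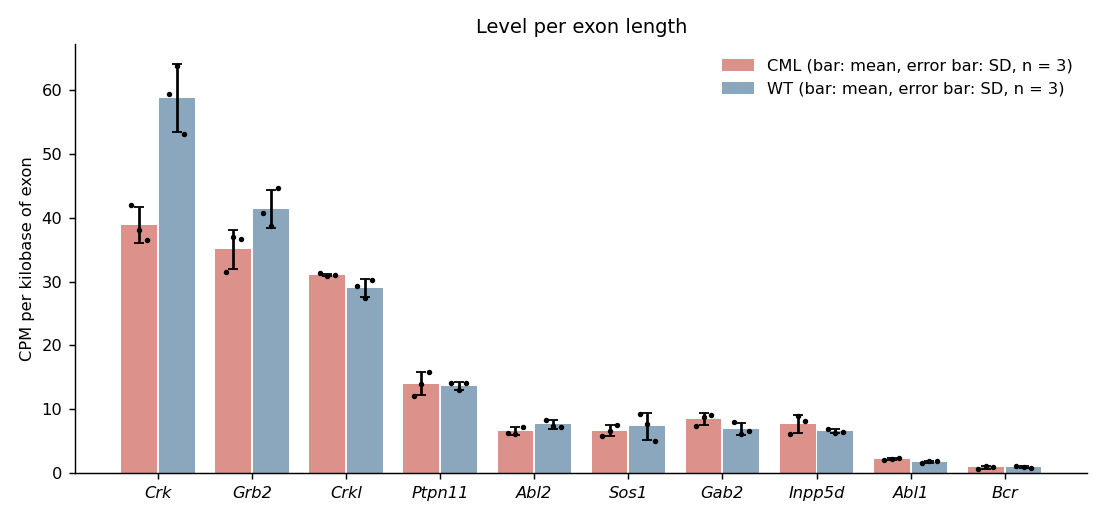
Level per exon length (CPM per kilobase of the union of annotated exons, axis from 0) of the 10 genes, ordered by their WT mean, with bars for the group mean, error bars for the SD (n = 3) and points for libraries, CML left in red and WT right in blue. Crk, Grb2 and Crkl have means of 29.0 to 58.8 in both groups and Abl1 and Bcr of 0.849 to 2.16.

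Other genes of the pathway were read from 7 lists drawn up with earlier results of these data known. The median log2 fold change of a list stands beside -0.00425 for all tested genes, of which 10.2% were called higher and 7.20% lower. Among 28 other adaptors and docking proteins, 25 were tested, 6 were called higher and 3 lower, with a median of 0.23. Grap, a GRB2-related adaptor gene, was higher at 14.5 ± 2.03 CPM in CML against 2.48 ± 1.15 CPM in WT libraries (log2 fold change 2.55, adjusted p = 1.43e-04). Lcp2, which encodes the adaptor SLP-76, rose by 0.78 (adjusted p = 3.31e-04). Stap1 and Grb10, an adaptor of insulin receptor signalling, were lower (log2 fold change -1.05 and -1.16; adjusted p = 5.93e-05 and 1.17e-04). The third gene called lower, Gab1, the paralogue of Gab2, was named after its values were seen. It had 6.18 ± 1.20 CPM in CML, against 10.4 ± 0.45 CPM in WT libraries (log2 fold change -0.74, adjusted p = 0.0182), and missed the threshold on leaving out CML replicate 2 (0.0527) or 3 (0.0926), or WT replicate 2 (0.0784).

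Of 18 relatives, substrates and regulators of ABL and BCR, 17 were tested, 6 called higher and 1 lower, with a median of 0.23. Beside Abr, Rin2, of a family of RAS and RAB effectors, rose by 1.95 (adjusted p = 1.96e-04), Ablim1, an actin-binding LIM protein gene, by 0.98 (2.04e-04) and Abi3, an ABL interactor gene, by 1.35 (0.00106; edgeR). Ptpn12, a tyrosine phosphatase gene named after its values were seen, was the one called lower (log2 fold change -0.57, adjusted p = 0.00720; 0.0515 without WT replicate 2). Of 14 CRK partners, 12 were tested, 3 called higher and 0 lower, with a median of 0.16. The count of 0 lower was the same at an unadjusted p under 0.05, with DESeq2 and with limma-voom. Nedd9, a CAS family scaffold that binds CRK when phosphorylated, had 159.7, 92.6 and 101 CPM in CML, against 17.9, 16.2 and 18.6 CPM in WT libraries (log2 fold change 2.75, SE 0.20, adjusted p = 1.42e-05, edgeR). All CML libraries thus lay above all WT libraries, while Crk itself was lower. Bcar3, which binds CAS proteins, was scarce, with 2.72 ± 1.23 CPM in CML against 0.226 ± 0.096 CPM in WT (adjusted p = 3.63e-04). Elmo2, a partner of DOCK proteins, rose by 0.50 (adjusted p = 0.0314) and missed the threshold on leaving out CML replicate 2 (0.146) or 3 (0.0977), or WT replicate 1 (0.0977) or 2 (0.138).

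Of 23 genes between RAS and ERK, all were tested, 4 called higher and 2 lower, with a median of -0.04. Rras2, a RAS family GTPase gene, rose by 0.74 (adjusted p = 0.00241) and the RAS exchange factor genes Rasgrp1 and Rasgrp4 by 2.58 and 0.96 (0.00393 and 0.0126; Rasgrp4 0.0716 without CML replicate 2 and 0.0548 without WT replicate 2). Rasa1, a RAS GTPase-activating protein gene, fell by 0.49 (0.0212), and missed the threshold on leaving out CML replicate 2 (0.0564) or 3 (0.0640), or WT replicate 1 (0.0592) or 2 (0.121). Mapk3, which encodes ERK1 and was named after its values were seen, had a log2 fold change of 0.42 (adjusted p = 0.0358). It missed the threshold in 5 of the 6 fits without 1 library and passed without WT replicate 3. The 6 calls of this list became 3, 3, 3 and 2 without CML replicate 2, CML replicate 3, WT replicate 1 and WT replicate 2.

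Of 17 PI3 kinase and AKT pathway genes, all were tested, 2 called higher and 0 lower, with a median of 0.16. These were the regulatory subunit genes Pik3r3 and Pik3r5, both scarce. Pik3r3 had 3.01 ± 0.33 CPM in CML, against 1.19 ± 0.43 CPM in WT libraries, and Pik3r5 had 3.34 ± 1.00 CPM in CML, against 1.51 ± 0.33 CPM in WT libraries (log2 fold changes 1.33 and 1.15, adjusted p = 0.0121 and 0.0243, edgeR). The count lower in CML was 2 at an unadjusted p under 0.05, and 0 passed with DESeq2 or limma-voom. One was called lower without CML replicate 3, without WT replicate 3 or with no low-count filter. Pik3r3 missed the threshold without WT replicate 2 (0.0723), and Pik3r5 without CML replicate 3 (0.132) and on leaving out WT replicate 1 (0.0937) or 2 (0.0721). Of 14 lipid phosphatases other than Inpp5d, 13 were tested, 4 called higher and 1 lower, with a median of 0.29. The higher ones were Synj2, Inpp5k, Inpp4b and, named after its values were seen, Mtmr3, with changes of 0.73, 0.44, 0.53 and 0.36 on the log2 scale (adjusted p = 0.0315, 0.0367, 0.0394 and 0.0476). Inpp5k and Mtmr3 missed the threshold without WT replicate 1 (0.0650 and 0.139), and Synj2 and Inpp4b without WT replicate 3 (0.0551 and 0.0982). Mtmr3 also missed it in edgeR with relative log expression (RLE) scaling (0.0515), with limma-voom (0.0519) and with no low-count filter (0.0912). No call of this list was left on leaving out CML replicate 2 or 3 or WT replicate 2, and 3 were left without WT replicate 1.

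Of 20 tyrosine phosphatases other than Ptpn11, 19 were tested, 6 called higher and 1 lower, with a median of 0.24. Ptpro, a receptor-type phosphatase gene, had 126 counts over the CML libraries and 3 over the WT libraries, a ratio of 44.8 with an exact 95% binomial interval from 15 to 220 that covers counting error only. Ptpn3 rose by 1.23 (adjusted p = 8.71e-04), and Ptpn13, scarce with 1.71 ± 0.26 CPM in CML against 0.0996 ± 0.173 CPM in WT, had an adjusted p of 0.00226 (edgeR). Ptpn1, which encodes PTP1B, rose by 0.58 (0.00959), and missed the threshold without CML replicate 2 (0.0548) or WT replicate 2 (0.0600). Ptpn4, named after its values were seen, was the one called lower (log2 fold change -0.41, adjusted p = 0.0303). It passed with all libraries and without WT replicate 3, and missed the threshold without any other library (0.0703 to 0.141) or when scaled by library totals (0.0671). The 7 calls became 3, 4, 4 and 3 without CML replicate 2, CML replicate 3, WT replicate 1 and WT replicate 2. A gene near 0 in WT, such as Ptpro or Bcar3, could be called only as higher in CML.

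**Figure D5:**
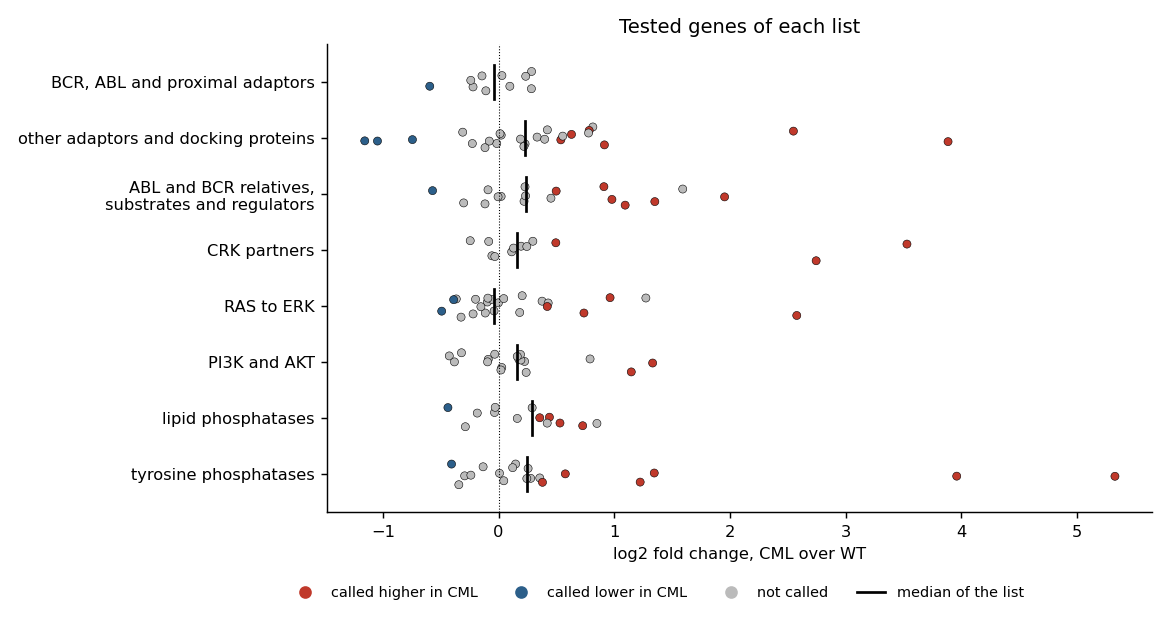
Log2 fold change of CML over WT (horizontal axis) of each tested gene (points, spread vertically for legibility) in the 10 genes described here and the 7 other lists, coloured by call, with a bar at each median. Of the 10 genes only Crk is called, at -0.59, and the other points of that row lie between -0.24 and 0.29.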

How the data were processed

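Bulk RNA sequencing measured expression in 3 CML and 3 WT libraries, grouped and numbered by the sample titles. The authors deposited estimated counts per gene symbol, not scaled to a common total. Between 28.1% and 30.3% of the values of a library lay more than 0.01 from a whole number. Per the submitters' processing notes, the tools were STAR 2.7.3a and Partek 8.0 and the genome build was mm10, with no role or order stated. The sources used here do not state annotation, strand setting or treatment of shared reads.

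Counts were rounded to whole numbers, and filterByExpr of edgeR (minimum count 10) left 16221 of 29872 genes, which hold 99.7% or more of every library. Groups were compared with edgeR 4.0.16 (R 4.3.3) by its two-sided quasi-likelihood test, using TMM factors, robust dispersions and a single group term. Levels are CPM from the cpm function with TMM factors. Standard errors come from the fold change and F statistic. The fit was tested on simulated data. Reads carry no molecular identifiers that the labels name, so depth-based precision covers counting error only. Coordinates and exon lengths are from GENCODE M21 (GRCm38).

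The 10 genes, the lists and the rules were chosen with earlier results of these data known. The text names the 10 genes, Sos2 and Abr, up to 4 called genes of each pathway list with the lowest adjusted p, and the 3 genes most like the member with the lowest p. Other names are said to be chosen after their values were seen. Some genes of the lists are counted but not reported by name here. Alternatives were other scalings and filters, DESeq2 1.42.0, limma-voom (limma 3.58.1), unrounded counts, a replicate block and leaving out each library. A planned description of protein motifs was not made, since no protein sequences were used here.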

Additional observations from a re-analysis of the deposited data

How the results depend on the processing

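Crk remained lower in CML and past the threshold in all 15 alternatives, with log2 fold changes of -0.66 to -0.54 when 1 library was left out and of -0.62 to -0.49 under the 9 other settings, and no other gene of the 10 passed in any of them. Of the 150 values of the 10 genes under alternatives, 145 kept their direction and side of the threshold. The 5 that changed sign were small, and the cause was not tested: Bcr (0.040 without CML replicate 1; -0.27 to 0.040 over the libraries left out), Sos1 (0.057 without WT replicate 1; -0.35 to 0.057) and Ptpn11 (-0.068 without CML replicate 3, -0.014 without WT replicate 2 and -0.003 when low counts were kept; -0.068 to 0.117 over the libraries left out).

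Over all genes, leaving out 1 library gave 1466 to 4122 calls, against 2820, with 1011 to 2021 higher and 455 to 2101 lower. Scaling by library totals gave 2065 higher and 732 lower (73.8% higher), against 1652 and 1168 (58.6%), and it raised the median log2 fold change of all genes to 0.0945. Without WT replicate 3 the higher share was 49.0%, and without CML replicate 3 and WT replicate 2 it was 67.9% and 69.0%. In the lipid phosphatase list 2 calls remained under the replicate block and 3 with limma-voom, against 5. Under the filter of 50 mean counts there were 4 tyrosine phosphatase calls, against 7, and 0 PI3 kinase calls, against 2. That filter left 16 of 19 tyrosine phosphatases and 14 of 17 PI3 kinase and AKT genes in the test. Ptpro, Ptpn13, Pik3r3 and Pik3r5 were among those removed.

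The labels do not say that replicate numbers pair a CML with a WT library, and deviations of same-numbered libraries from their group means correlated at -0.02, -0.05 and 0.0087. With the replicate number as a block, 2807 genes were called and Crk had a log2 fold change of -0.59 (adjusted p = 0.00410). The block ended the calls of Synj2 (0.0502), Inpp4b (0.0503), Mtmr3 (0.0565) and Fbxo3 (0.0575), and changed the call of no other gene named in the text with a test. In the marker lists it moved the mast cell and basophil calls to 2 higher, against 5, the dendritic calls to 5 higher, against 4, the megakaryocyte calls to 3 lower, against 2, and the neutrophil calls to 1 higher and 1 lower, against 0. With no low-count filter, 3 erythroid genes were called higher and 0 lower, against 1 and 1, and 1 neutrophil gene lower. Ratios within a library with 1 library left out ran from -0.60 to -0.37 for Abl2 to Abl1, 0.59 to 0.79 for Crkl to Crk and -0.33 to -0.14 for Sos2 to Sos1, as log2 differences with no test.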
